A study of Mus musculus with 6 samples.

Results

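Integrins are the receptors by which cells hold on to the matrix, and the 33 genes described here encode integrin chains, 2 of their ligands and the proteins of focal adhesions. They were taken by symbol from the annotation of a mouse bead array. The annotation named 72 probes for 31 of the 33 genes and listed none under the symbols Itga10 or Ptk2, the gene of focal adhesion kinase, so both are not analysed here. Of these, 39 probes of 25 genes were bright enough to be tested, out of 17954 tested probes and 10077 tested genes in all.

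The arrays held total RNA of thoracic aorta from male C57Bl/6 mice aged 3 to 4 months, with 3 samples per genotype and 1 array per sample. The WT samples carried the genotype SM22αCre-Ndstwt/wt. The NDST samples carried SM22αCre+Ndst-/-, in which Cre under the SM22α promoter removes the heparan sulfate enzyme Ndst1. That promoter is active in smooth muscle and also in the embryonic heart. Cre is present only in the NDST samples, so it varies together with the deletion, and both groups share the strain, sex, age and tissue. Ndst1 was not analysed here, and the genotype labels therefore had no check from the targeted gene. The labels do not tell whether each sample is a separate animal, and the p-values refer to the spread among the deposited samples, which may be technical.

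Each integrin is a pair of 1 alpha and 1 beta chain. The alpha chain largely sets the ligand, such as collagen, laminin or the RGD motif of fibronectin and vitronectin, while the tail of the beta chain binds talin and kindlin inside the cell. Vinculin, zyxin, paxillin and the complex of integrin-linked kinase, parvin and PINCH then tie the receptor to actin. In the arterial wall these adhesions carry force between smooth muscle cells, fibroblasts and the matrix. Syndecans, which carry heparan sulfate, bind fibronectin beside the integrins.

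The arrays were alike in brightness, with between 17549 and 18619 probes detected on each and a median unnormalised intensity of 130.0 to 141.5. Values below are log2 levels after background correction and quantile normalisation, and a difference is always NDST minus WT with its standard error and n = 3 arrays per genotype. The level of 1 probe cannot be set against that of another probe. A probe was called where limma's adjusted p, taken over all tested probes, was under 0.05. All 8 smooth muscle markers were detected on at least 3 of 6 arrays. The myosin gene Myh11 (0.04 ± 0.07) and the actin gene Acta2 (0.02 ± 0.07) did not pass, although Acta2 was lower in the authors' processed values (-0.16, adjusted p = 0.0448). Because these are bulk samples, fewer cells of a type and less RNA per cell cannot be told apart.

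The aorta showed transcripts of a broad set of integrins. A probe was counted as detected on an array where its detection p was under 0.05. Among the alpha chains, Itga1 and Itga11 (collagen receptors), Itga3, Itga6 and Itga7 (laminin receptors), Itga5, Itga8 and Itgav (receptors of the RGD motif) and Itga9 each had at least 1 probe detected on all 6 arrays. The same held for the beta chains Itgb1, Itgb4 and Itgb5. Itgb7, a beta chain of lymphocytes, was detected on 4 arrays, 1 WT and 3 NDST.

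Other chains stayed at background. The single probe of Itga2, the 6 probes of Itga4 and the 3 probes of Itgb8 were detected on no array. The probe of Itgb3, the beta chain of the vitronectin receptor, was detected on 1 array. For Itgb6, an epithelial chain, 1 of its 4 probes was detected on 2 arrays and another on 1. Lims1, a gene of PINCH, was the adaptor with no probe detected on any array. Lims2, another gene of PINCH outside the members, was detected on all 6 arrays and differed by -0.12 ± 0.08 (limma adjusted p = 0.408). A silent probe need not mean a silent gene. For Itgav 2 of 5 probes, for Pxn 3 of 5 and for Fn1 2 of 4 were detected on no array, although another probe of the same gene was detected on all.

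**Figure D1:**
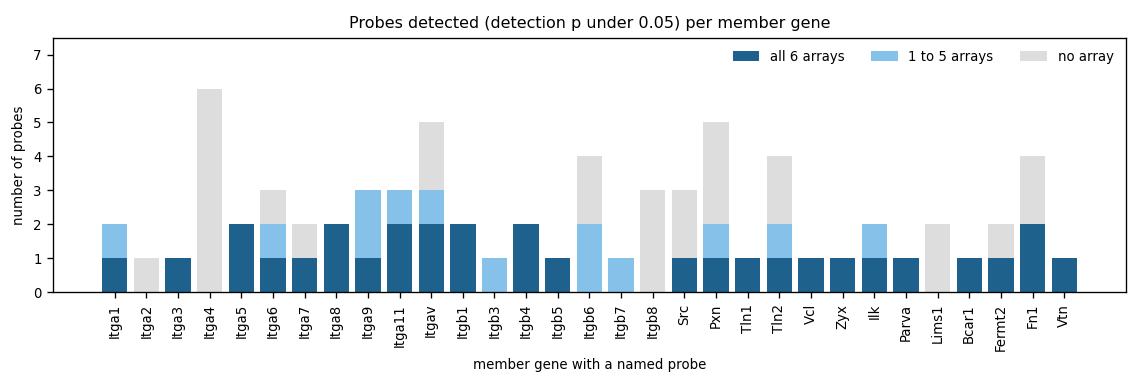
Number of array probes per member gene, split by whether the probe was detected (detection p under 0.05) on all 6 arrays, on 1 to 5 arrays or on none. Itga4 has 6 probes and none of them was detected, whereas both probes of Itga5, Itga8, Itgb1 and Itgb4 were detected on all 6 arrays.

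Between the genotypes, fibronectin and the laminin receptor chain Itga6 rose and no member fell. Taking for each gene the tested probe with the highest mean over all 6 arrays, called its brightest here, 2 of 25 members passed, 8% against a background of 7.35% (741 of 10077 genes), so the share of changed members lay near that of all genes. Higher calls alone made up 4.61% of all genes and lower calls 2.74%. By probe, 3 of 39 passed, 7.69% against 7.44% of all tested probes (4.32% higher and 3.12% lower). Without adjustment 10 of the 25 members had a p under 0.05, where 26.0% of all genes did. The third called probe was a dim one of Itga11.

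Small differences leaned upward. Of the 25 members 19 had a positive difference, as did 5143 of all 10077 tested genes. The members had a median of 0.17 where the median of all genes was 0.00, and their range ran from -0.37 for Itgb1 to 0.74 for Itga6. WT and NDST values were fully separated for 13 of 25 members, 10 of them higher and 3 lower in NDST, against 34.1% of all genes, 18.0% higher and 16.1% lower. The median was 0.05 in the authors' processed values. It was 0.25 without normalisation between arrays, where the median of all tested probes itself stood at 0.13. A member tested because it was bright in 1 genotype only would differ by construction, and these numbers are a description of the members that could be tested. Itgb7 (0.54), detected on 1 WT and 3 NDST arrays, is counted among the higher and separated members.

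**Figure D2:**
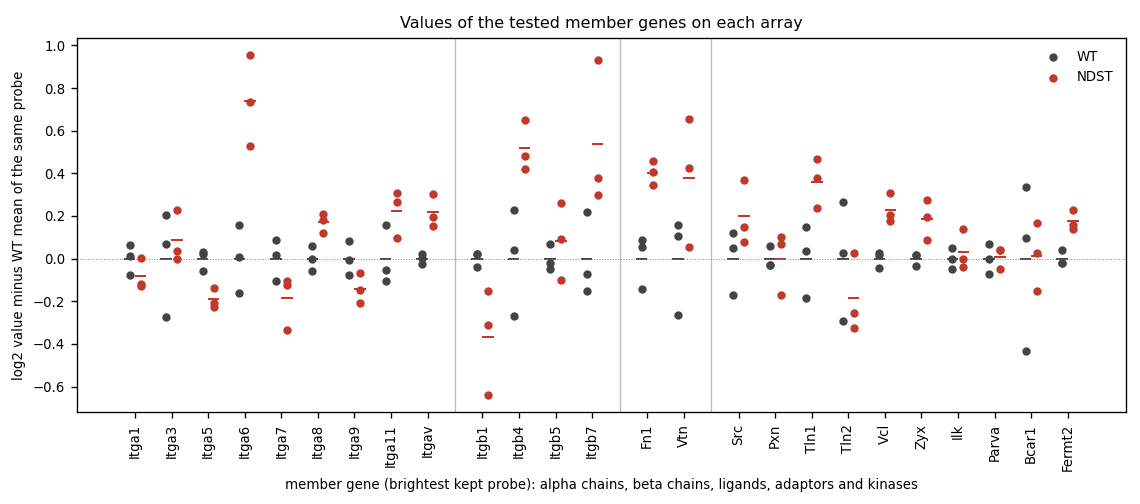
Log2 value of each tested member gene on each array, minus the WT mean of the same probe, for 3 WT (grey) and 3 NDST (red) arrays, with short lines at the means. The NDST points of Itga6 and Fn1 lie above all WT points of the same gene, and those of Itgb1 lie below.

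**Figure D3:**
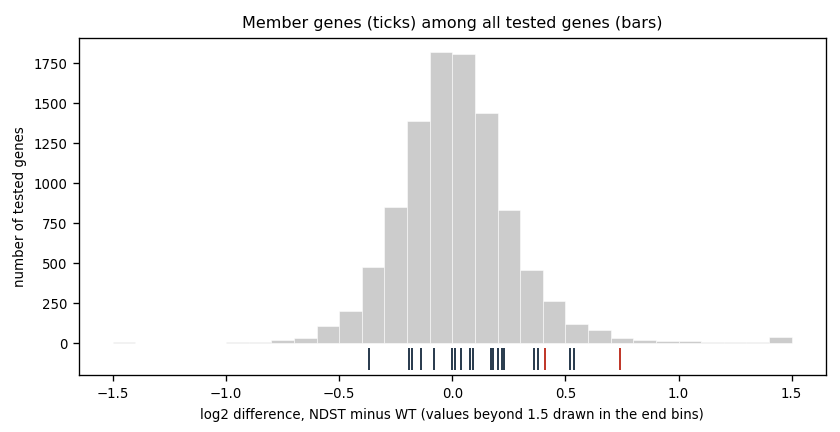
Number of tested genes by log2 difference, NDST minus WT, in bars, with a tick for each of the 25 member genes below. The members spread over the same range as most genes, with Itga6 (0.74) and Fn1 (0.41), in red, the only member genes past the threshold.

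The ligands come first. Fn1 encodes fibronectin, the matrix glycoprotein whose RGD motif is bound by the alpha5 beta1 and alphav integrins and whose heparin-binding domains bind heparan sulfate. The log2 level of its brightest probe was 9.82, 10.02 and 10.05 on the WT arrays and 10.42, 10.37 and 10.31 on the NDST arrays. All NDST values lay above all WT values. The difference was 0.41 ± 0.09, a 1.33-fold rise (limma adjusted p = 0.0428). The call was narrow: leaving out any 1 of the 6 arrays ended it, with adjusted p between 0.0734 and 0.12. A dimmer probe of Fn1 stood at 0.22 ± 0.19 (adjusted p = 0.50), and its values in the genotypes overlapped.

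Vtn encodes vitronectin, a plasma protein and ligand of the alphav integrins. It measured 5.69, 6.11 and 6.06 in WT and 6.61, 6.38 and 6.01 in NDST. The groups overlapped, and the difference of 0.38 ± 0.18 did not pass (adjusted p = 0.239).

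Transcripts of matrix-making fibroblasts differed in the same arrays as Fn1. Of 7 tested adventitial fibroblast markers 5 rose (median 0.40), among them Pi16 (0.67 ± 0.08), Pdgfra (0.41 ± 0.07) and Lum (0.34 ± 0.07). Their summed linear level was 12906 to 13309 on the WT arrays and 16376 to 17111 on the NDST arrays. Of these, Pi16 passed without any 1 array, whereas Pdgfra (adjusted p 0.0546 to 0.0826) and Lum (0.0759 to 0.12) did not. Their part in the difference of Fn1 was not tested.

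Among the laminin receptors Itga6 alone passed. Its chain pairs with beta1 or, in epithelia and Schwann cells, with beta4. The log2 level of the called probe was 5.14, 5.29 and 4.97 in WT and 5.87, 5.66 and 6.09 in NDST, so every NDST array lay above every WT array. The unnormalised intensities were low, 140.6 to 149.3 in WT and 164.7 to 190.3 in NDST, and 2 of the 3 WT arrays counted as detected.

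The difference of Itga6 was 0.74 ± 0.13, or 1.67-fold (limma adjusted p = 0.0249, 95% interval 0.43 to 1.06). It still passed without WT replicate 2 (adjusted p = 0.0484) or NDST replicate 2 (0.0371) and not when any other single array was left out, where adjusted p was 0.0691 to 0.0787. The second tested probe of Itga6 stood at 0.43 ± 0.17 (adjusted p = 0.165), with overlapping groups. In WT the called and the second probe had means of 5.13 and 5.12, so the NDST values mostly decided which stood for the gene. The size rests on the background step: it was 0.20 on intensities without background correction and 0.22 in the authors' processed values, and passed in both.

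The other laminin receptors did not pass. Itga3, found with beta1 in many epithelia, differed by 0.08 ± 0.14 (adjusted p = 0.75). Itga7, the laminin receptor of muscle, measured 8.17, 8.36 and 8.29 in WT and 8.15, 8.17 and 7.94 in NDST. Its groups just missed each other, and the difference of -0.19 ± 0.10 did not pass (adjusted p = 0.274). Its other probe was detected on no array and was not tested. Itga7 is also made by heart muscle, whose markers were far higher in these NDST arrays, and their part was not tested.

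Itgb4, the partner of alpha6 in hemidesmosomes, came close to the threshold. The probe that stood for the gene read 6.58, 6.27 and 6.77 in WT and 7.19, 7.02 and 6.96 in NDST. The groups did not overlap, and the difference was 0.52 ± 0.14 (adjusted p = 0.0683). Its other probe, detected on all arrays too, stood at 0.24 ± 0.12 (adjusted p = 0.26). In WT that other probe was the brighter, with a mean of 6.65 against 6.54, so the NDST values decided which probe stood for the gene. Itgb4 passed under 7 of 17 alternative settings, with adjusted p from 0.00425 to 0.171.

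Cells known to carry alpha6 beta4 were followed through their markers. Of 5 tested epithelial and mesothelial markers Scgb1a1, a secretory protein of the airway, rose (2.38 ± 0.07). The summed level of these 5 was 420 to 425 in WT and 1134 to 1166 in NDST, and Scgb1a1 was the 1 called gene in it. The others did not pass: Upk3b stood at 0.24 ± 0.12, Msln at 0.12 ± 0.19, Krt8 at -0.03 ± 0.14 and Krt18 at -0.13 ± 0.16. Msln and Krt8 were named after their values were seen. The probes of the epithelial markers Epcam, Cdh1, Krt19 and Sftpc were too dim to be tested. None of 3 Schwann cell markers passed (summed level 259 to 275 in WT, 235 to 281 in NDST). Nor did any of 6 endothelial markers (median 0.22), although their summed level was 3937 to 4218 in WT and 4657 to 4721 in NDST. Their part in the differences of Itga6 and Itgb4 was not tested.

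The collagen receptors gave 1 call, on a dim probe. Itga11 encodes a receptor of fibrillar collagen found mainly on fibroblasts. Its brightest probe measured 7.01, 6.96 and 7.22 in WT and 7.33, 7.37 and 7.16 in NDST, overlapping, with a difference of 0.22 ± 0.10 (adjusted p = 0.223). The called probe was detected on no WT array and on 3 NDST arrays, so it met the detection filter only through the NDST arrays. Its fitted difference was 0.43 ± 0.09 (adjusted p = 0.0407), but against the lowest detectable signal the NDST level was at least 1.02-fold higher. It lost its call whichever array was left out (adjusted p 0.0607 to 0.114). The third probe stood at 0.02 ± 0.16. Itga1, a collagen receptor of smooth muscle, differed by -0.08 ± 0.08 with its brightest probe (adjusted p = 0.576) and by 0.31 ± 0.12 with a dim one (adjusted p = 0.162).

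Receptors of the RGD motif moved little and in both directions. Itga5, the fibronectin receptor chain, read 8.41, 8.42 and 8.33 in WT and 8.25, 8.18 and 8.16 in NDST. All NDST values lay below the WT values, and the difference of -0.19 ± 0.07 did not pass (adjusted p = 0.16, 95% interval -0.36 to -0.02). The unnormalised intensities overlapped, at 424.6, 441.6 and 420.6 in WT and 425.8, 419.2 and 421 in NDST. The difference of Itga5 was -0.08 with median scaling and -0.04 without normalisation between arrays. Its second probe stood at -0.17 ± 0.14.

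Itgav, the vitronectin receptor chain, read 6.31, 6.26 and 6.29 in WT and 6.44, 6.48 and 6.59 in NDST. The groups did not overlap, but 0.22 ± 0.07 did not pass (adjusted p = 0.127), and another probe stood at 0.05 ± 0.08. Itga8, a chain of contractile cells that binds nephronectin, stood at 0.17 ± 0.07 (adjusted p = 0.203) and, with a probe of nearly the same brightness, at -0.03 ± 0.16. Itga9, which binds tenascin-C and VCAM-1, stood at -0.14 ± 0.08 (adjusted p = 0.315) with its bright probe. Of its dim probes, 1 read 4.97, 5.07 and 4.42 in WT and 5.39, 5.55 and 5.58 in NDST, with no overlap and a difference of 0.69 ± 0.17 (adjusted p = 0.0603), and was detected on 2 WT and 3 NDST arrays. The other dim probe stood at -0.33 ± 0.23 (adjusted p = 0.403). The direction of Itga9 thus depended on the probe.

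The common partner of most of these chains is Itgb1, and its 2 probes differed in direction. The brighter read 6.91, 6.91 and 6.85 in WT and 6.74, 6.58 and 6.25 in NDST, a difference of -0.37 ± 0.13 (adjusted p = 0.13). The other read 6.33, 6.47 and 6.36 in WT and 6.49, 6.51 and 6.63 in NDST, a difference of 0.16 ± 0.08 (adjusted p = 0.274). In neither did the groups overlap, and neither passed. Itgb5, which pairs with alphav, stood at 0.09 ± 0.11 (95% interval -0.17 to 0.34). Itgb7, detected on few WT arrays, stood at 0.54 ± 0.19 (adjusted p = 0.126).

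Whether probes of 1 gene differed from each other was tested on their difference within each array, over all 5379 such pairs on the arrays, a test chosen after the values were seen. Of these pairs 0.242% passed, and none of the 14 pairs of member probes did (limma, 3 of 14 with an unadjusted p under 0.05). The probes of Itgb1 differed by -0.52 ± 0.17 (brighter minus other, adjusted p = 0.255). The widest gap was between the brightest and a dim probe of Itga9, -0.83 ± 0.16 (adjusted p = 0.0982). In all, 12 members had several tested probes, and for 6 of them the probes disagreed in sign.

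**Figure D4:**
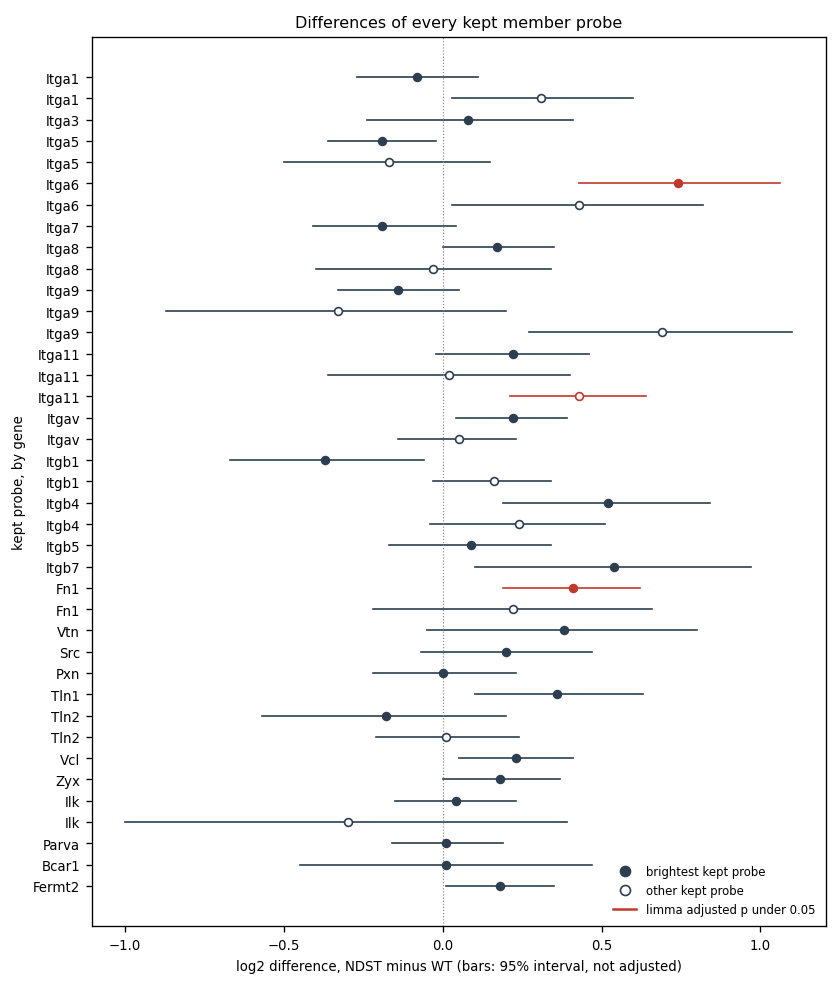
Log2 difference, NDST minus WT, of all 39 tested member probes with unadjusted 95% intervals. Filled points are the brightest probe of a gene, open points its other probes, and red marks the 3 probes past the threshold, of Itga6 (0.74), Itga11 (0.43) and Fn1 (0.41). For Itgb1 and Itga9 filled and open points lie on both sides of 0.

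No adaptor or kinase passed. Of the 10 tested, 9 had a positive difference (median 0.11), as did 5143 of all 10077 tested genes. For 4 of the 10 the groups did not overlap, all 4 higher in NDST. Groups did not overlap for 34.1% of all genes (18.0% higher in NDST), so separation of this kind was common on these arrays. Vcl encodes vinculin, which binds talin and actin when an adhesion is under load. It read 11.03, 11.02 and 10.96 in WT and 11.18, 11.21 and 11.31 in NDST. The groups were apart, by 0.23 ± 0.07, but the difference did not pass (adjusted p = 0.108, 95% interval 0.05 to 0.41).

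Zyx encodes zyxin, which gathers on stretched actin fibres. It read 12.35, 12.35 and 12.30 in WT and 12.61, 12.53 and 12.42 in NDST, a difference of 0.18 ± 0.08 (adjusted p = 0.20). Fermt2 encodes kindlin-2, which activates integrins through the beta tail. It read 10.89, 10.89 and 10.95 in WT and 11.05, 11.14 and 11.07 in NDST, a difference of 0.18 ± 0.07 (adjusted p = 0.176). Tln1, the gene of talin, read 5.65, 5.32 and 5.54 in WT and 5.74, 5.88 and 5.97 in NDST, a difference of 0.36 ± 0.11 (adjusted p = 0.0965). In each of these genes all NDST values lay above all WT values by a small margin. When limma's variance was allowed to follow brightness and was estimated robustly, Vcl (adjusted p = 0.0045), Zyx (0.0154) and Fermt2 (0.026) passed. Of 17 alternative settings Vcl passed under 3, Zyx under 2 and Fermt2 under 2. In the authors' processed values none of them did, with Vcl at 0.13 (adjusted p = 0.108), Zyx at 0.02 (0.827) and Fermt2 at 0.09 (0.283).

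Vinculin is a known target of serum response factor, which binds the CArG box and responds to the state of actin. RefSeq promoter windows (GRCm38.p6, 250 bases before to 50 after an annotated start) matched 24 members with 30 windows. They were searched for the CArG box, CC and GG around 6 bases of A or T, a motif that reads the same way on both strands. It was in 3 of the 30 member windows and in 1.63% of all 32851 windows. The windows of Vcl and Fermt2 are shown because both genes had NDST values above all WT values and hold the motif, in capitals. Of the 10 members separated in this way, only these held the motif in a window that was searched. No window was listed for Fn1 or Itga6, the called member genes. The remaining window with the motif was a second window of Itgb6, which could not be tested. Both the motif and the genes shown were picked after the values were seen, and a match is no evidence of binding.

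Vcl, chr14:20929148-20929447, plus strand: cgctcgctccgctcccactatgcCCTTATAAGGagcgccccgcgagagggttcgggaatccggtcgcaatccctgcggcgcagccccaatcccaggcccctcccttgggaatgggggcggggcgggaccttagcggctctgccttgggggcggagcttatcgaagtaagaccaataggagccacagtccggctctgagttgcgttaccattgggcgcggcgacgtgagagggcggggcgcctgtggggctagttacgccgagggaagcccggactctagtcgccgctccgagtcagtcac
Fermt2, chr14:45530016-45530315, minus strand: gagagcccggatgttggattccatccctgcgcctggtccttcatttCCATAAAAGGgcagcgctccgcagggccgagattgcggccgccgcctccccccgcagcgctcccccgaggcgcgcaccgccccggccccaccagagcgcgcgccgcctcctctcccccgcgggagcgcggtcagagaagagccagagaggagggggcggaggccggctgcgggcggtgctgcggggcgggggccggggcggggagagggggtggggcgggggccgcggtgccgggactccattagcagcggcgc

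In the Vcl window the motif begins 227 bases upstream of the annotated start, and in the Fermt2 window 204 bases upstream.

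The rest of the adhesion complex stood close to 0. Ilk, the integrin-linked kinase, differed by 0.04 ± 0.08 (95% interval -0.15 to 0.23), and its partner Parva, alpha-parvin, by 0.01 ± 0.08 (-0.16 to 0.19). Pxn, the scaffold paxillin, stood at 0.00 ± 0.10 (-0.22 to 0.23). Bcar1, the stretch-sensitive scaffold p130Cas, stood at 0.01 ± 0.20 with a wider interval of -0.45 to 0.47. Src, the tyrosine kinase that acts with focal adhesion kinase, stood at 0.20 ± 0.11 (adjusted p = 0.319), and Tln2, the second talin gene, at -0.18 ± 0.16. A dim probe of Ilk stood at -0.30 and passed, lower, when WT replicate 1 was left out (-0.67, adjusted p = 0.0497). On that array it read 4.88, where the other WT arrays read 5.92 and 6.02.

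Around the members, other parts of the adhesion machinery gave few calls. Of 46 tested adaptors, kinases and regulators outside the members, 3 rose and 1 fell (8.70% against 7.35% of all genes, median 0.05). Fhl2, a LIM protein of adhesions that is abundant in heart, rose by 1.90 ± 0.14 with its brightest probe (adjusted p = 0.000714). A dim probe of Fhl2, detected on no WT array and on 3 NDST arrays, met the detection filter only through NDST. Its fitted difference was 0.48 ± 0.10 (adjusted p = 0.0381), as a bound at least 1.26-fold. Itgb1bp2, or melusin, a muscle protein that binds the beta1 tail, was detected on no WT array and on 3 NDST arrays. It thus met the detection filter only through the NDST arrays. Its fitted difference was 1.24 ± 0.14 (adjusted p = 0.00515), and as a bound its NDST level was at least 1.71-fold higher. Pdlim1, which binds alpha-actinin, rose by 0.37 ± 0.08 (adjusted p = 0.0399). Tns2, a tensin that links integrin tails to actin, read 7.20, 7.10 and 6.95 in WT and 6.62, 6.51 and 6.60 in NDST and fell by 0.50 (adjusted p = 0.0244). Itgb1bp2 and the brightest probe of Fhl2 kept their calls without any 1 array. Pdlim1 lost its call each time (adjusted p 0.0802 to 0.118), and Tns2 passed in 1 of 6 such fits (0.0342 to 0.0858).

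Fhl2 and Itgb1bp2 moved with the markers of heart muscle. All 8 tested cardiac markers rose (median 3.56), led by Actc1 (3.84 ± 0.08), Myl4 (3.33 ± 0.07) and Sln (4.08 ± 0.09). Their summed level was 1401 to 1439 in WT and 16462 to 17226 in NDST. Itga7, which heart muscle also makes, stood at -0.19 ± 0.10 with its 1 tested probe. The part of heart muscle transcripts in the differences of Fhl2, Itgb1bp2 and Itga7 was not tested.

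Of 24 other tested integrin ligands 4 rose and none fell (16.7% against 7.35%, median 0.11). Col1a2, a chain of fibrillar collagen I, rose by 0.52 ± 0.09 (adjusted p = 0.0259), and Col6a1, of microfibrillar collagen VI, by 0.37 ± 0.08 (adjusted p = 0.0399). Other chains of these collagens did not pass, with Col1a1 at 0.15 ± 0.07 (adjusted p = 0.224) and Col6a2 at 0.14 ± 0.07 (0.276). Nor did the dimmer probes of Col6a1, at 0.30 ± 0.08 (adjusted p = 0.0683) and 0.25 ± 0.15 (0.332). Ccn2, a matricellular ligand that binds heparan sulfate, rose by 0.37 ± 0.07 (adjusted p = 0.0265), and Vwf, von Willebrand factor of endothelium, by 0.45 ± 0.09 (adjusted p = 0.0308). Another probe of Ccn2 was called too, at 0.53 ± 0.07 (adjusted p = 0.0105). Fibroblasts, whose markers rose in the same arrays, make collagen and Ccn2, and endothelium makes Vwf. The part of these cells in the 4 rises was not tested. With its brightest probe, each of the 4 lost its call whichever single array was left out (adjusted p 0.0524 to 0.114).

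None of the 4 syndecans passed (limma, 1 with an unadjusted p under 0.05, median 0.24), with Sdc3 at 0.30 ± 0.12 and Sdc2 at 0.19 ± 0.09. Sdc1 stood at 0.33 ± 0.20, and Sdc4 went the other way, at -0.23 ± 0.12.

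Integrin chains of blood cells gave no call. Of 7 such genes 3 were tested and none passed (1 with an unadjusted p under 0.05). The platelet chain Itga2b stood at -0.33 ± 0.13 (adjusted p = 0.171) and Itgae, of lymphocytes in epithelia, at -0.18 ± 0.10. Itgal went the other way, at 0.23 ± 0.13 (adjusted p = 0.334). The probes of Itgb2, Itgam, Itgax and Itgad were not detected on enough arrays. In the same arrays the 4 platelet markers had a median of -0.32, with none called and a summed level of 1141 to 1252 in WT and 991 to 1098 in NDST. The part of platelets in the difference of Itga2b was not tested. Among 8 leukocyte markers only the neutrophil genes S100a8 (1.40 ± 0.08) and S100a9 (1.26 ± 0.09) rose. The list median was 0.17, with 5 positive and 3 negative differences, and no other leukocyte marker passed.

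**Figure D5:**
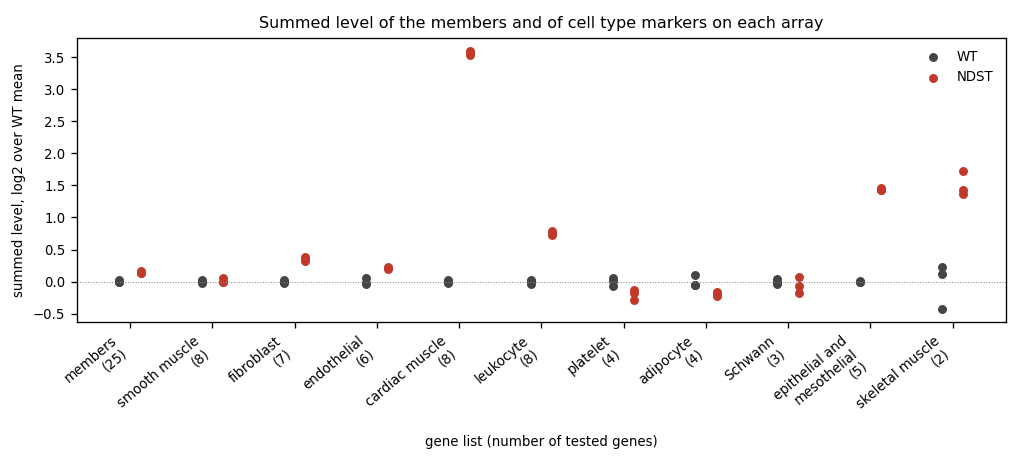
Summed linear level of the tested member genes and of each cell type marker list on each array, as log2 over the WT mean of that list, with the number of tested genes in brackets. Cardiac markers differ far more than the members, whose summed level is 16476 to 16818 on the WT arrays and 18185 to 18640 on the NDST arrays. Adaptors and kinases hold most of that sum (11913 to 12097 in WT, 13240 to 13561 in NDST). Alpha chains sum to 2418 to 2548 in WT and 2345 to 2446 in NDST, and beta chains to 1021 to 1067 and 1007 to 1199. The ligands sum to 953 to 1126 in WT and 1334 to 1472 in NDST.

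The other marker lists gave the following values. Adipocyte markers had no call among 4 (median -0.17, summed level 29510 to 32710 in WT and 26271 to 27222 in NDST). Of 8 smooth muscle markers Lmod1 fell by 0.31 (adjusted p = 0.0472, and 0.0971 to 0.124 with any 1 array left out), with a list median of 0.01. Over all 14 tested probes of these markers, 1 was called higher and 1 lower. Of 2 tested skeletal muscle markers Ckm, which heart also makes, was detected on no WT array and was at least 4.15-fold higher in NDST. It met the detection filter only through the NDST arrays. Myh1, Myh4, Tnnt3, Tnni2 and Pvalb were not detected on enough arrays.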

How the data were processed

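Per the file headers, the main deposited table gives each probe an unnormalised linear intensity and a detection p-value on each array. The authors' processed table holds intensities scaled in a way not given in the sources used here, with medians of 135.8 to 135.9 in WT and 134.2 to 134.4 in NDST. It served as an alternative. The submitters' processing notes name GenomeStudio. With limma 3.58.1 in R 4.3.3, neqc (normexp background from the detection p-values, offset 16, quantile normalisation, log2) made the values. The size of differences of dim probes depends on this step. For Itga6 it was 0.74 here, 0.43 with an offset of 50 and 0.20 without background correction. Probes with detection p under 0.05 on at least 3 of 6 arrays were kept. Probes were named from the platform annotation (34885 with 1 gene, 18 with several, 10378 not listed), and the brightest kept probe stood for a gene. The genotypes were compared by lmFit and eBayes (two-sided), and p-values were adjusted by Benjamini-Hochberg over every kept probe. For a probe detected on no array of a genotype the fold is a bound, against the higher of its own value and the lowest detected value of each array. The number of arrays limits the precision (median standard deviation within a genotype 0.13 in log2). On simulated arrays of 17954 independent probes for this comparison, 26% of differences of 0.5 and 74% of differences of 1 were recovered. The members, gene lists and tests were chosen with earlier results of these data known. Named were all members, called genes of the other adhesion lists (or the 2 with the smallest p) and up to 3 genes of a cell type list. Lims2, Col1a1, Col6a2, Sdc1, Sdc4 and Itgal were named after their values were seen. Same-numbered samples did not deviate together (correlations of -0.01, 0.01 and 0.02), so the replicate number was not used as a block. No 2 arrays held identical values. The result of 1 further gene list is not reported here.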

Additional observations from a re-analysis of the deposited data

How the results depend on the processing

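The number of called members depended on the processing, and all calls were higher in NDST except 1 in the authors' values and 1, a dim probe of Ilk, without WT replicate 1. In the main setting 1336 probes in all, 3 of 39 member probes and 2 of 25 member genes were called. The counts were 3145, 7 and 6 without background correction. With limma's variance following brightness and estimated robustly, they were 3086, 7 and 6. They were 2711, 12 and 8 without normalisation between arrays, and 3493, 5 and 4 in the authors' processed values, where Itga9 was the 1 lower call (-0.18), a dim probe of Itga9 was called higher (0.20, adjusted p = 0.0284) and the median of the members was 0.05 against 0.17. Without a detection filter they were 722, 1 and 1. Median scaling gave 7 member probes and 5 member genes. An offset of 50 gave 2190 called probes in all, and detection under 0.01 on all 6 arrays gave 2017. The mean of a gene's probes gave 1 member gene. Of the called probes 58.1% were higher in the main setting, 82.9% with median scaling, 88.9% without normalisation between arrays and 41.5% in the authors' values. Leaving out 1 array gave 401 to 536 called probes in all, 0 to 1 member probes and 0 to 1 member genes, with 5 to 9 of 25 members at an unadjusted p under 0.05 and a median of 0.12 to 0.18. With the replicate block limma called 364 probes in all, 0 member probes and 0 member genes, with 7 of 25 members at an unadjusted p under 0.05. The samples share only a number, as the labels give no pairing. Fn1 passed under 8 of 17 alternatives (adjusted p 7.7e-05 to 0.12), Itga6 under 11 of 16 (0.00656 to 0.0831) and the dim probe of Itga11 under 3 of 15 (0.0277 to 0.144). No called member changed sign, and Acta2, at 0.02, turned to -0.16 in the authors' values. The causes of these shifts were not tested. Brightness near background limits Itga6, Itgb7, Tln1 and the dim probes.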

Other observations

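Npnt encodes nephronectin, the ligand by which alpha8 beta1 holds cells to basement membranes, and was picked with its values in view. It read 7.07, 6.99 and 6.33 on the WT arrays and 5.86, 6.15 and 6.11 on the NDST arrays. All NDST values lay below the WT values, but the difference of -0.75 ± 0.20 did not pass (limma adjusted p = 0.0689). It passed without WT replicate 3 (-0.99, adjusted p = 0.0147) and under 6 of 16 alternatives in all. Its receptor chain Itga8 stood at 0.17 ± 0.07 in the same arrays.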
